A study of Mus musculus with 6 samples.

Results

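The TIM and TOM genes encode most of the machinery that brings nuclear-encoded proteins into mitochondria. They were taken as every gene of the deposited table whose name begins with Timm or Tomm followed by a digit, plus Timmdc1, leaving out names marked as pseudogenes. That gave 23 of the 19978 genes in the table. Each library came from 100 hematopoietic stem cells (HSCs), the source of the blood lineages, sorted from the bone marrow of mice, and the design sets HSCs without the mechanically gated channel Piezo1 against wild-type HSCs. There were 3 libraries labelled Piezo1 cKO, a conditional knockout (here labelled cKO 1, 2 and 3), and 3 wild-type libraries (WT 1, 2 and 3). The sources used here name neither the driver of the deletion nor the age of the animals, nor do they say that libraries are from different animals. The p-values below thus cover sample-to-sample spread alone, and that spread may be technical.

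Proteins made in the cytosol reach mitochondria through the TOM complex of the outer membrane, in which receptors hand the unfolded chain to the Tom40 channel. From there the TIM23 complex of the inner membrane takes proteins with a cleavable presequence into the matrix, the small TIM chaperones carry hydrophobic proteins across the intermembrane space, and the TIM22 complex inserts carrier proteins into the inner membrane. HSCs are known for a low reliance on respiration, and their mitochondria are remodelled when they leave quiescence.

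The libraries were uneven. Total counts were 31252820, 72116120 and 69972499 in labelled cKO 1, 2 and 3, against 18035239, 64794532 and 3907259 in WT 1, 2 and 3. The 100 most abundant genes took 29.8% to 31.7% of the counts in the labelled cKO libraries, against 46.1%, 30.2% and 76.1% in WT 1, 2 and 3. Piezo1 itself did not separate the labels, with an FPKM (fragments scaled to transcript length and library depth) of 0.175, 8.81 and 0.819 in labelled cKO 1, 2 and 3 against 0.539, 3.97 and 1.57 in WT 1, 2 and 3, so every direction below rests on the labels. Of 14 HSC marker genes, 8, 9 and 8 reached an FPKM of 1 in labelled cKO 1, 2 and 3, against 2, 11 and 4 in WT 1, 2 and 3. Their summed FPKM was 582, 511 and 434 in labelled cKO 1, 2 and 3, against 611, 374 and 45.5 in WT 1, 2 and 3, and Ly6a alone had 601 of the sum in WT 1.

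The upstream windows of the 4 tested genes whose genotypes did not overlap are shown here, because the results below turn on these genes. The windows are from RefSeq on GRCm38.p6 and run from 250 bases before to 50 bases after the annotated start, 5′ to 3′ on the gene's strand. Capitals mark matches to the motifs described after them. Timm17a and Tomm20 were the genes higher in the labelled cKO libraries, and Timm50 and Tomm22 the genes lower there.
Timm17a, chr1:135313688-135313987, minus strand: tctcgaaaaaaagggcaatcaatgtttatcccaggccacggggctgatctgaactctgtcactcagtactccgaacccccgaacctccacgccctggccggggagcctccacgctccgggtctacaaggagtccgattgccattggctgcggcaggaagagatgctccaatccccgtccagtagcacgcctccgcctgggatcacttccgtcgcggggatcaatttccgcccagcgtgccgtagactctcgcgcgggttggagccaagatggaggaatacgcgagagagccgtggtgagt
Tomm20, chr8:126945872-126946171, minus strand: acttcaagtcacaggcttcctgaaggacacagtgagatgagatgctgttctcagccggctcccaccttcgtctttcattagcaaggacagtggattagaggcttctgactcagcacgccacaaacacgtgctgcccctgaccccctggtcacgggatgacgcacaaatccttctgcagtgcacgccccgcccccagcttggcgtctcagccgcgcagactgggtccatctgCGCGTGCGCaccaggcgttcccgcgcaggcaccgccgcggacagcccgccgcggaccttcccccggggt
Timm50, chr7:28311997-28312296, minus strand: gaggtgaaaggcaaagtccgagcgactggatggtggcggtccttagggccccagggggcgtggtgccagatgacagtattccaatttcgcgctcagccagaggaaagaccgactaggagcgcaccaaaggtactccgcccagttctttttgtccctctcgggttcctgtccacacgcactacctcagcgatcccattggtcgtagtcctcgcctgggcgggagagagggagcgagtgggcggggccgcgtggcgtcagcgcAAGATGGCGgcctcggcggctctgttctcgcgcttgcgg
Tomm22, chr15:79670618-79670917, plus strand: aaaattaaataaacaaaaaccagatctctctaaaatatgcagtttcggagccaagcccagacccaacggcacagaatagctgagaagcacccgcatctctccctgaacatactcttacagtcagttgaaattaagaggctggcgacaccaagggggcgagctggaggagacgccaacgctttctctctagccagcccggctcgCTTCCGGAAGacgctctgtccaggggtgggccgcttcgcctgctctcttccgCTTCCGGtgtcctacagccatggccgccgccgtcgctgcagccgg

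Motifs of 4 kinds of factor known at promoters of mitochondrial genes were searched on both strands. The ETS core CCGGAAG, bound by GABPA among others, occurred in the windows of 9 of the 20 TIM and TOM genes with a window, and in 10 of their 22 windows. That compares with 20.2% of the 3510 windows of tested genes and 11.7% of the 20997 windows of protein-coding genes. These shares are per window, and the 20 genes include some that were not tested, Timm10 and Timmdc1 among the 9 with a match. The Tomm22 window held 3 matches, of which a pair overlap on opposite strands (bases 204 to 210 and 207 to 213 of the window) and the other lies at bases 256 to 262. The NRF1 motif GCGCANGCG occurred in the windows of Tomm20 (bases 232 to 240), Timm8b and Timm13, 3 of the 20 genes, against 16.6% of windows of tested genes. The YY1 motif AAGATGGCG occurred in 1 of the 20, Timm50 (bases 262 to 270), against 3.90% of windows of tested genes. The ZNF143 motif ACTACAATT occurred in 0 of the 20, against 0.826%. The Timm17a window held none of the 4. The windows had a median of 20.5 CpG dinucleotides, against 21.0 in windows of tested genes and 13.0 in those of protein-coding genes. A match is a description of the letters and not a binding site.

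Detection of the 23 genes overlapped between genotypes. An FPKM of 1 was reached by 10, 12 and 16 of them in labelled cKO 1, 2 and 3, against 9, 22 and 16 in WT 1, 2 and 3. The share of all genes in the table at that level was 15.7%, 21.6% and 23.1% in labelled cKO 1, 2 and 3, against 15.6%, 28.7% and 27.0% in WT 1, 2 and 3. A count of 100 was reached by 9, 12 and 16 TIM and TOM genes in labelled cKO 1, 2 and 3, against 6, 22 and 0 in WT 1, 2 and 3. WT 2 therefore held nearly the whole set, with Timm22 the exception, and the genes at an FPKM of 1 in WT 3 stood on 12 to 69 counts each.

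**Figure D1:**
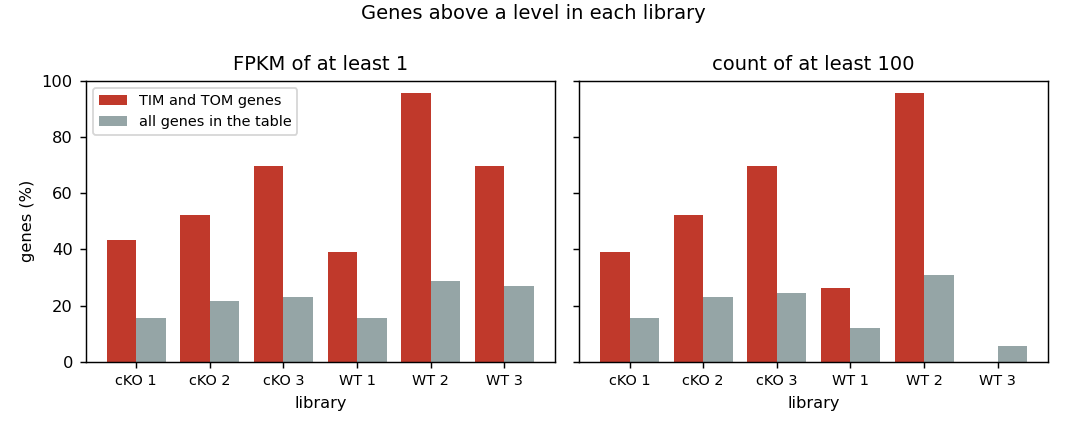
Percentage of the 23 TIM and TOM genes (red) and of all 19978 genes in the table (grey) at an FPKM of at least 1 (left) and at a count of at least 100 (right), for each labelled cKO and WT library. In WT 3, 69.6% of TIM and TOM genes pass the FPKM level and none passes the count level.

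The 23 genes together took 0.281%, 0.410% and 0.471% of the counts in labelled cKO 1, 2 and 3, against 0.183%, 0.412% and 0.0164% in WT 1, 2 and 3. Their 642 counts in WT 3 are the smallest sum of the 6 libraries. Single genes mostly had either few or many counts: of the 138 counts (23 genes in 6 libraries), 74 were under 150 and 55 were at least 1000, with 9 between. All WT 3 values, at most 69 counts each, fall under 150, though 16 of the genes reached an FPKM of 1 there. The same split was not computed over all genes. Across the 23 genes, log2(FPKM + 1) correlated at 0.80 between labelled cKO 2 and labelled cKO 3. The value was 0.67 between WT 2 and labelled cKO 3, and 0.39 between labelled cKO 1 and labelled cKO 3. WT 3 correlated at 0.65 with WT 2 and at 0.64 with labelled cKO 3. Over all tested genes, labelled cKO 3 correlated at 0.57 with labelled cKO 2, at 0.61 with WT 2 and at 0.36 with labelled cKO 1. There WT 3 correlated at 0.26 with WT 2 and at 0.22 with labelled cKO 3. The 23 genes include 6 that were not tested, so the 2 sets of genes differ in their range of levels. These values are a description over genes that share library and depth. In bulk samples, fewer cells of a type and less RNA per cell cannot be told apart.

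**Figure D2:**
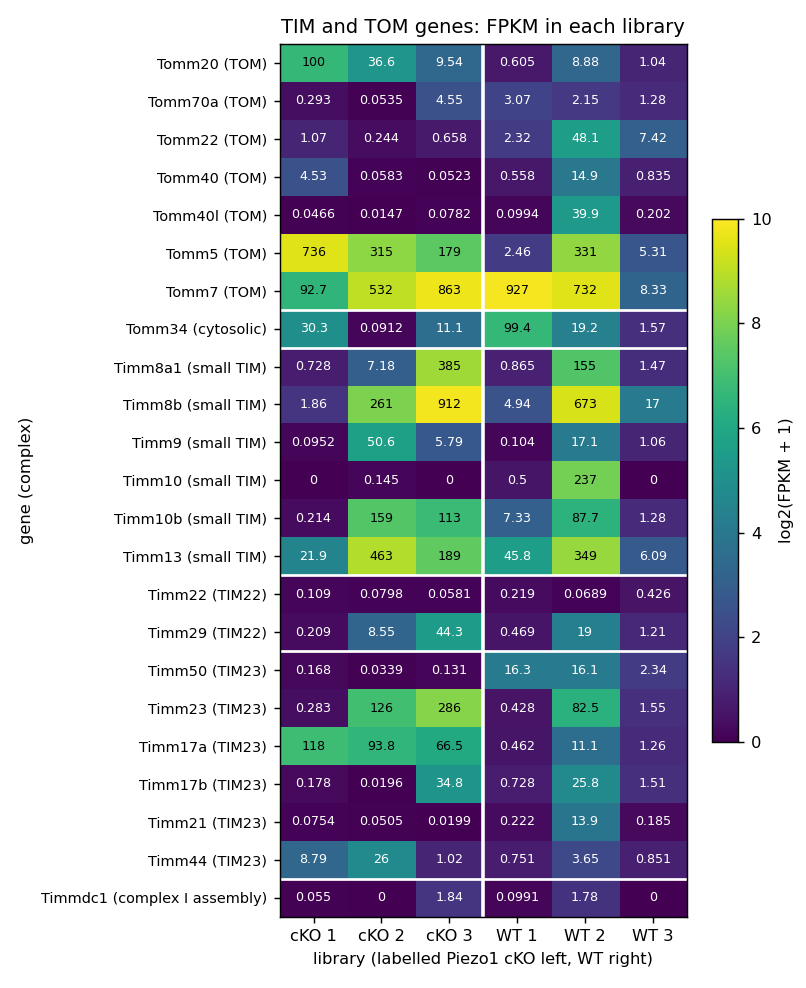
FPKM of the 23 TIM and TOM genes (rows, grouped by complex) in the labelled cKO libraries (left) and WT libraries (right), with colour on the log2(FPKM + 1) scale. Timm17a and Tomm20 are brighter in each labelled cKO library than in any WT library, and WT 2 shows a level of at least 1 for every gene but Timm22.

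Among the TOM receptors, Tomm20 was higher and Tomm22 lower in the labelled cKO libraries. Tomm20 (ENSMUSG00000093904; chr8:126930667-126945844 on GRCm38, minus strand), the receptor for presequences, had an FPKM of 100, 36.6 and 9.54 in labelled cKO 1, 2 and 3, against 0.605, 8.88 and 1.04 in WT 1, 2 and 3. The genotypes did not overlap, but labelled cKO 3 lay close to WT 2. Counts were 18438, 14304 and 3641 in labelled cKO 1, 2 and 3, against 64, 3156 and 28 in WT 1, 2 and 3. The means were 48.9 ± 46.7 and 3.51 ± 4.66 in labelled cKO and WT (SD, n = 3 each), and the log2 fold change of 4.32 (standard error 2.71) did not pass edgeR's quasi-likelihood test (adjusted p = 0.734).

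Tomm22 (ENSMUSG00000022427; chr15:79670861-79673400, plus strand), the central receptor that organises the complex, had an FPKM of 1.07, 0.244 and 0.658 in labelled cKO 1, 2 and 3, against 2.32, 48.1 and 7.42 in WT 1, 2 and 3. No labelled cKO library reached the lowest WT level. The separation rests on few counts outside WT 2: 66, 33 and 85 in labelled cKO 1, 2 and 3, against 83, 5756 and 68 in WT 1, 2 and 3. Its log2 fold change was -4.38 (standard error 2.20, edgeR adjusted p = 0.692). Tomm70a, the receptor for carrier proteins and chaperone-bound clients, had 0.293, 0.0535 and 4.55 in labelled cKO 1, 2 and 3, against 3.07, 2.15 and 1.28 in WT 1, 2 and 3, so its genotypes overlapped.

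The channel genes of the outer membrane were well detected in few libraries. Tomm40, the pore of the complex, had an FPKM of 4.53, 0.0583 and 0.0523 in labelled cKO 1, 2 and 3, against 0.558, 14.9 and 0.835 in WT 1, 2 and 3. Its paralogue Tomm40l had 0.0466, 0.0147 and 0.0782 in labelled cKO 1, 2 and 3, against 0.0994, 39.9 and 0.202 in WT 1, 2 and 3, with 14837 counts in WT 2 and at most 32 in any other library. Neither gene passed the filter for testing, which asked for an FPKM of 1 or more in 3 or more libraries.

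The small TOM subunits had the highest mean FPKM of the outer membrane members in both genotypes. Tomm7, which steadies the assembled complex and is known for retaining Pink1 at it, had 92.7, 532 and 863 in labelled cKO 1, 2 and 3, against 927, 732 and 8.33 in WT 1, 2 and 3. Tomm5, a subunit attached to the pore, had 736, 315 and 179 in labelled cKO 1, 2 and 3, against 2.46, 331 and 5.31 in WT 1, 2 and 3. Tomm5 was thus high in 4 libraries of 6, with WT 2 inside the labelled cKO range. Its log2 fold change was 2.40 (standard error 2.39, edgeR adjusted p = 0.754). Tomm34, a cytosolic co-chaperone that is not part of the complex, had 30.3, 0.0912 and 11.1 in labelled cKO 1, 2 and 3, against 99.4, 19.2 and 1.57 in WT 1, 2 and 3.

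In the TIM23 complex, Timm17a was higher and Timm50 lower in the labelled cKO libraries. Timm17a (ENSMUSG00000062580; chr1:135295213-135313778, minus strand), a core subunit of the presequence translocase, had an FPKM of 118, 93.8 and 66.5 in labelled cKO 1, 2 and 3, against 0.462, 11.1 and 1.26 in WT 1, 2 and 3. The labelled cKO libraries lay close together and each was above every WT library. This separation stood on 34707, 58948 and 40864 counts in labelled cKO 1, 2 and 3, against 80, 6362 and 56 in WT 1, 2 and 3. The means were 92.6 ± 25.5 and 4.28 ± 5.94 in labelled cKO and WT (SD, n = 3 each). The log2 fold change was 4.94 (standard error 2.50), which did not pass (edgeR, adjusted p = 0.692).

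Timm50 (ENSMUSG00000003438; chr7:28305516-28312072, minus strand), the receptor that guides presequences to the TIM23 channel, had an FPKM of 0.168, 0.0339 and 0.131 in labelled cKO 1, 2 and 3, against 16.3, 16.1 and 2.34 in WT 1, 2 and 3. Counts were 18, 8 and 29 in labelled cKO 1, 2 and 3, against 942, 3125 and 37 in WT 1, 2 and 3. The transcript was near background in all labelled cKO libraries and clearly present in WT 1 and WT 2, while the WT 3 level stood on a count close to that of labelled cKO 3 in a library with far fewer counts. The log2 fold change was -6.37 (standard error 2.47, edgeR adjusted p = 0.692). Timm50 passed the filter through the WT libraries alone, and it was already known from earlier results of these data as a gene that separates the labels.

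**Figure D3:**
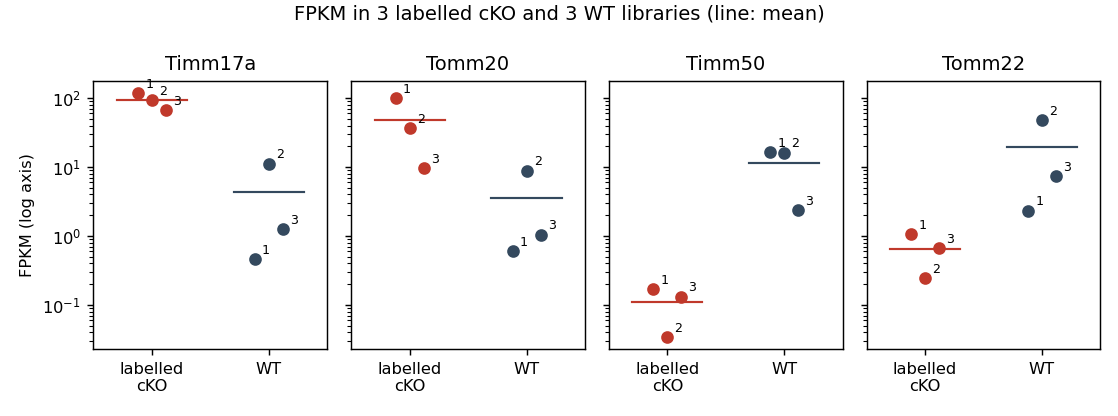
FPKM on a log axis of the 4 tested TIM and TOM genes whose genotypes did not overlap, with points numbered by library and a line at the mean. Timm17a and Tomm20 lie higher, and Timm50 and Tomm22 lower, in the 3 labelled cKO libraries than in the 3 WT libraries.

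The other TIM23 members overlapped between genotypes or were detected in WT 2 alone. Timm23, the channel, had 0.283, 126 and 286 in labelled cKO 1, 2 and 3, against 0.428, 82.5 and 1.55 in WT 1, 2 and 3 (log2 fold change 2.73, standard error 2.52, edgeR adjusted p = 0.747). It was at background in labelled cKO 1, where its partner Timm17a had its highest level. Timm17b, the paralogue of Timm17a, had 0.178, 0.0196 and 34.8 in labelled cKO 1, 2 and 3, against 0.728, 25.8 and 1.51 in WT 1, 2 and 3. Timm44, which tethers the import motor to the channel, had 8.79, 26.0 and 1.02 in labelled cKO 1, 2 and 3, against 0.751, 3.65 and 0.851 in WT 1, 2 and 3 (log2 fold change 3.24, standard error 2.39, edgeR adjusted p = 0.734). Timm21, which links the complex to TOM, had at most 0.0754 in the labelled cKO libraries, against 0.222, 13.9 and 0.185 in WT 1, 2 and 3. Its 3739 counts in WT 2 compare with at most 19 elsewhere.

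The small TIM chaperones, which work as hexamers in the intermembrane space, were mostly high in labelled cKO 2, labelled cKO 3 and WT 2. Timm8b had 1.86, 261 and 912 in labelled cKO 1, 2 and 3, against 4.94, 673 and 17.0 in WT 1, 2 and 3. Its partner Timm13 had 21.9, 463 and 189 in labelled cKO 1, 2 and 3, against 45.8, 349 and 6.09 in WT 1, 2 and 3. Timm8a1, the counterpart of the human deafness-dystonia gene, had 0.728, 7.18 and 385 in labelled cKO 1, 2 and 3, against 0.865, 155 and 1.47 in WT 1, 2 and 3. In each of these, labelled cKO 1, WT 1 and WT 3 were the lowest libraries and the genotypes overlapped. Timm8a1 was also far lower in labelled cKO 2 than in labelled cKO 3 or WT 2.

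Timm9 and Timm10, which form a hexamer together, did not share a pattern. Timm9 had 0.0952, 50.6 and 5.79 in labelled cKO 1, 2 and 3, against 0.104, 17.1 and 1.06 in WT 1, 2 and 3 (log2 fold change 2.18, standard error 2.49, edgeR adjusted p = 0.770). That direction turned without labelled cKO 2 (log2 fold change -0.67). Timm10 had 237 in WT 2, with 13980 counts, and at most 0.500 in any other library. Timm10b, the small TIM that docks on the TIM22 complex, had 0.214, 159 and 113 in labelled cKO 1, 2 and 3, against 7.33, 87.7 and 1.28 in WT 1, 2 and 3. Of the TIM22 complex itself, the channel gene Timm22 stayed at 0.426 or less in each library, on 8 to 21 counts, while the subunit gene Timm29 (a role known from human cells) had 0.209, 8.55 and 44.3 in labelled cKO 1, 2 and 3, against 0.469, 19.0 and 1.21 in WT 1, 2 and 3. Timmdc1, a factor for assembly of respiratory complex I that is related to these channels in sequence, had 1.84 in labelled cKO 3 and 1.78 in WT 2 and was under 0.1 in the other libraries.

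Of the 23 genes, 17 passed the filter and 6 did not (Timm10, Timm21, Timm22, Timmdc1, Tomm40 and Tomm40l). In the fit over all 4173 tested genes, edgeR called 0 TIM and TOM genes at an adjusted p of 0.05, where it called 0.0% of all tested genes. With no gene called at all, that result cannot show an absence of change. An unadjusted p under 0.05 was reached by 3 TIM and TOM genes (Timm50, Tomm22 and Timm17a) and by 6.88% of all tested genes. Of these 3, 1 was higher in the labelled cKO libraries, as were 3.4% of all tested genes, and 2 were lower, as were 3.47%. DESeq2 called 4 TIM and TOM genes, Timm50 (adjusted p = 0.000232), Timm17a (0.00467), Tomm20 (0.0197) and Tomm22 (0.0323), and 7.14% of all tested genes. It gave no adjusted p for 752 tested genes, Timm8a1 and Tomm34 among them, and the share was 8.71% of the genes that had one. On log2(FPKM + 1), limma called 0 TIM and TOM genes and 0 genes in all, with 3 and 4.77% at an unadjusted p under 0.05. In edgeR the count of 3 was 5 without WT 2, where 16.9% of all tested genes reached that level. It was 1 without WT 1 (3.71%), without WT 3 (4.15%) or without labelled cKO 2 (5.10%). With a filter of an FPKM of at least 5 in at least 3 libraries it was 0 of 12 tested (9.86%). With a filter of a count of at least 100 in at least 3 libraries it was 0 of 14 tested (6.29%). Timm50 and Tomm22 were not tested under those filters, and Timm17a had an edgeR unadjusted p of 0.0723 and 0.0537.

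Log2 fold changes of the tested TIM and TOM genes ran from -6.37 to 4.94 with a median of 1.71, and 13 were positive and 4 negative. Over all tested genes the median was 1.10 and 67.9% were positive, so part of each value is the shift of the whole fit. With median-of-ratios scaling those medians were 1.31 and 0.52. Relative to the median of all tested genes, the log2 fold change was 3.83 for Timm17a, 3.22 for Tomm20, -7.47 for Timm50 and -5.49 for Tomm22. The median of the TIM and TOM genes was 4.45 when WT 2 was left out, beside 2.93 over all tested genes. It turned negative when labelled cKO 3 was left out (-0.0901, beside 0.74) and when WT 1 and WT 3 were (-0.0178, beside 0.41), so there it lay below the median of all tested genes.

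**Figure D4:**
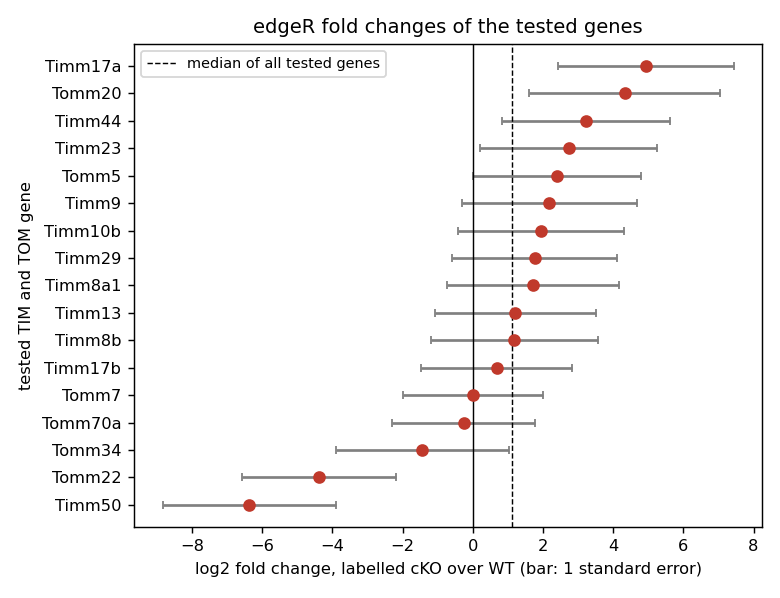
edgeR log2 fold changes of the 17 tested TIM and TOM genes, labelled cKO over WT, with bars of 1 standard error. The dashed line at 1.10 is the median of all tested genes. Timm50 and Tomm22 lie farthest to the left and Timm17a and Tomm20 farthest to the right, and none passed the test.

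Each labelled cKO library lay above each WT library for 2 of the 23 genes (Timm17a and Tomm20), against 1.87% of all genes in the table, and below each WT library for 4 (Timm50, Tomm22, Timm21 and Tomm40l), against 8.6%. Outside WT 2, Timm21 had at most 19 counts and Tomm40l at most 32, so their separation stands on values near background. Among the 17 tested genes the groups did not overlap for 2 in each direction, beside 6.37% of all tested genes above and 5.18% below, and 11.6% in all. Without labelled cKO 3 the count was 7 of 17, where 22.7% of all tested genes did not overlap, and it was 6 of 17 without labelled cKO 1 (31.3%) and without WT 2 (32.1%). At a count of at least 100 in at least 3 libraries, chosen after seeing the data, Timm50 and Tomm22 were no longer tested, and 2 of the 14 TIM and TOM genes tested there did not overlap, beside 10.7% of 3577 genes.

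Markers of other marrow cells differed between the libraries. The summed FPKM of 11 erythroid markers was 3015, 2536 and 2053 in labelled cKO 1, 2 and 3, against 10149, 14630 and 22803 in WT 1, 2 and 3, and 6 to 8 of them reached an FPKM of 1 in each library. Globin genes made up most of this sum, with Hbb-bs at 1638, 828 and 702 in labelled cKO 1, 2 and 3, against 4078, 6457 and 13985 in WT 1, 2 and 3. Alas2 was also lower in the labelled cKO libraries. Car2 overlapped between genotypes, Klf1 stayed at 0.571 or less, and Car1 reached an FPKM of 1 in labelled cKO 3 alone (57.1). The sum led by globin is higher in WT, as are Timm50 and Tomm22, and its part in those differences was not tested. The summed FPKM of 12 granulocyte and monocyte markers was 893, 38856 and 5060 in labelled cKO 1, 2 and 3, against 29896, 829 and 987 in WT 1, 2 and 3, with Ly6g at 0 counts in labelled cKO 2, labelled cKO 3 and WT 1. Lymphoid markers (9 of 10 in the table) summed to 3.05, 0.787 and 0.861 in labelled cKO 1, 2 and 3, against 6.79, 86.4 and 21.2 in WT 1, 2 and 3, and Cd79b alone had 85.8 of the sum in WT 2. The 7 megakaryocyte markers summed to 294, 151 and 28.9 in labelled cKO 1, 2 and 3, against 264, 1879 and 16.5 in WT 1, 2 and 3. Pf4 alone had 260 of the sum in WT 1 and 1814.5 in WT 2. Itga2b went the other way, with 177, 16.6 and 28.2 in labelled cKO 1, 2 and 3, against 0.333, 7.21 and 0.306 in WT 1, 2 and 3. The 6 stromal and endothelial markers summed to at most 20.9 in the labelled cKO libraries and 13.1 in the WT libraries. Pecam1 made up most of these, with 20.3 in labelled cKO 2 and 12.6 in WT 2.

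Other genes of the import route, taken by function, were read from the same fit. Of 26 such genes 24 were in the table and 14 were tested, and edgeR called 0 of them, with 0 at an unadjusted p under 0.05. Their log2 fold changes had a median of 0.50, with 8 positive and 6 negative. Dnajc19, which stimulates the import motor beside Timm44, had an FPKM of 132, 112 and 108 in labelled cKO 1, 2 and 3, against 0.543, 71.3 and 0.776 in WT 1, 2 and 3 (log2 fold change 2.79, standard error 2.37, edgeR adjusted p = 0.747). Each labelled cKO library was above each WT library for Dnajc19, with WT 2 closest. The genotypes overlapped for the rest of the 14 tested genes. Over all tested genes, 6.37% lay above in this way and 5.18% below.

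Pmpca, a subunit of the protease that removes presequences, had 0.166, 9.71 and 0.146 in labelled cKO 1, 2 and 3, against 342, 8.33 and 2.04 in WT 1, 2 and 3 (log2 fold change -5.04, standard error 2.66, edgeR adjusted p = 0.692). Its WT mean rests on WT 1, and without that library the log2 fold change was -0.06. Mtx2, of the outer membrane assembly machinery, had 0.204, 23.8 and 36.9 in labelled cKO 1, 2 and 3, against 0.430, 7.10 and 0.958 in WT 1, 2 and 3 (log2 fold change 3.27, standard error 2.55, edgeR adjusted p = 0.734). Hspa9, the Hsp70 of the motor, had 2.69, 58.7 and 69.7 in labelled cKO 1, 2 and 3, against 21.3, 59.3 and 19.0 in WT 1, 2 and 3. Romo1, of the TIM23 complex, had 448, 268 and 493 in labelled cKO 1, 2 and 3, against 1162, 1065 and 14.1 in WT 1, 2 and 3, and Samm50, the outer membrane insertase, had 18.9, 7.73 and 26.2 in labelled cKO 1, 2 and 3, against 48.5, 7.21 and 1.70 in WT 1, 2 and 3. These 3 genes reached an FPKM of 1 in all 6 libraries, and their genotypes overlapped.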

How the data were processed

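Per the labels' protocols, cDNA was primed on poly(A) tails, extended by template switching and amplified. The labels mention no molecular identifiers. The deposited table holds counts per gene and FPKM, values that the authors normalised for transcript length and sequencing depth. The submitters' processing notes list StringTie 2.1.6, HISAT2 2.2.1 and cutadapt 1.9 beside edgeR and DESeq2, and the build GRCm39, with no role or order given. Deposited coordinates equal GENCODE M21 on GRCm38 for 22 of the 23 genes (not Timm9) and are read as GRCm38. Between 40.2% and 48.8% of counts from 1 to 40 were multiples of 4. Whether the counts are plain numbers of reads was not tested, and edgeR and DESeq2 took them as given. The counting and its strand setting are not given in the sources used here, and reads shared with pseudogenes or paralogues may be split.

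Groups came from the genotype labels. edgeR 4.0.16 (R 4.3.3, TMM, quasi-likelihood, genotype only, Benjamini-Hochberg over 4173 genes) was the main test, with standard errors taken as the fold change over the root of F. DESeq2 1.42.0 (local fit) and limma 3.58.1 on log2(FPKM + 1), with a pseudocount of 1, were alternatives, beside other filters, scaling, covariates and left-out libraries. Fold changes are given for the 8 tested TIM and TOM genes and the 3 other import genes with the smallest unadjusted p. Genes, lists and motifs were chosen with earlier results of these data known, and 3 of the 4 motifs were shortened to 9 letters after the matches of longer forms had been seen. Figures used matplotlib 3.10.9.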

Additional observations from a re-analysis of the deposited data

How the results depend on the processing

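The number of TIM and TOM genes past an adjusted p of 0.05 was 0 in edgeR. It stayed 0 under each alternative run that kept several libraries per genotype except DESeq2, which called 4. Over all tested genes the count of 0 became 298 with DESeq2 and 163 with no filter. The spread between libraries in the main edgeR fit was wide (biological coefficient of variation 1.49). At that spread edgeR called 0 of all 4173 tested genes, so its 0 for the TIM and TOM genes cannot show an absence of change. None of the other import genes that had an adjusted p was called under any alternative run, and DESeq2 gave none to 4 of the 14, Pmpca, Dnajc19, Immp1l and Dnajc15. The median log2 fold change of the tested TIM and TOM genes, 1.71, beside 1.10 over all tested genes, was 0.0206 with the total count as covariate (beside 0.43) and -0.0178 without WT 1 and WT 3 (beside 0.41), and it ranged from -0.0901 to 4.45 without one library. The 4 tested genes whose genotypes did not overlap became 2 at a count of at least 100 in 3 libraries (beside 10.7% of all genes tested there), and ranged from 4 to 7 without one library, where 14.3% to 32.1% of all tested genes did not overlap. The direction of Timm50, Tomm22, Timm17a and Tomm20 held under each alternative that tested them. These genes were singled out because their genotypes did not overlap in the same data. Leaving out a library could therefore not turn their FPKM order, and the held direction adds no support. Without one library the log2 fold change ranged from -8.10 to -5.79 for Timm50, from -6.02 to -2.49 for Tomm22, from 3.76 to 7.12 for Timm17a and from 2.23 to 6.27 for Tomm20. That of Timm9 ranged from -0.67 to 5.46. Deviations of same-numbered libraries from their group means correlated at 0.13, 0.15 and -0.16 for numbers 1, 2 and 3. Differently numbered libraries were not compared, so these values cannot show whether the numbers stand for pairs. With the replicate block, genes of all kinds at an unadjusted p under 0.05 numbered 84 against 287, 1 TIM or TOM gene was among them and 0 passed the adjusted p, and the median was 0.66, beside 0.77 over all tested genes. In WT 3 no TIM or TOM gene had more than 69 counts, which limits what a single gene can show there.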

Other observations

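Some subunits known to work together differed in level within a library, while Timm8b and Timm13 were both high in labelled cKO 2, labelled cKO 3 and WT 2. These genes were chosen after their values were seen. In labelled cKO 2, Timm9 had 17251 counts and its hexamer partner Timm10 had 10, while in WT 2 they had 5304 and 13980. In labelled cKO 1, Timm17a had 34707 counts and Timm23 had 20, against 6362 and 10671 in WT 2. Tomm20 had 14304 counts in labelled cKO 2 where the other receptor genes Tomm22 and Tomm70a had 33 and 42, against 3156, 5756 and 1523 in WT 2. Tomm5 made up 65.8% of the summed FPKM of the 23 genes in labelled cKO 1, and Tomm7 made up 83.2% in WT 1, against 25.3% in WT 2.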
